A study of Mus musculus with 6 samples.

Results

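The 10 genes described here encode the core of the p38 kinase pathway: the 4 p38 kinases themselves (Mapk11, Mapk12, Mapk13 and Mapk14), the kinases directly above them (Map2k3 and Map2k6), a pair of kinases directly below them (Mapkapk2 and Mapkapk3) and a pair of phosphatases that switch them off (Dusp1 and Dusp10). They were taken by gene name from a table of 40840 genes. All 10 were in the table and all 10 passed the filter on low values (a mean over the libraries of at least 1 TPM, a unit of transcript abundance scaled by transcript length and to the same total in every library), which left 11643 genes for testing. RNA-seq had been performed on colonic organoids, cultures of colon epithelial cells grown in Matrigel, from 3 wt C57BL/6 mice that had been given dextran sodium sulfate (DSS), which injures the colon epithelium and causes colitis, and from 3 control wt C57BL/6 mice. DSS mice drank 2.5% DSS in 2 rounds of 5 days, the first at 10 weeks of age, with a 2 week interval between the rounds. DSS organoids were set up on day 14 after DSS, and RNA was taken from the organoids of both groups on culture day 4. The labels list no age for the control mice, so age and DSS cannot be told apart. Each library came from a separate mouse, 1 library per mouse. The question put to these samples was whether epithelium that had been through DSS colitis differed in expression from control epithelium once both were in culture.

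The p38 kinases are mitogen-activated protein kinases (MAPKs) that respond to cytokines such as TNF and to osmotic, oxidative and ultraviolet stress. MAP3K enzymes activate the MAP2K enzymes MKK3 and MKK6, these phosphorylate p38 on a threonine and a tyrosine, and active p38 phosphorylates MK2, MK3 and transcription factors. Through MK2 the pathway stabilizes short-lived, AU-rich messenger RNAs of inflammatory genes, and dual-specificity phosphatases remove the activating phosphates again. In the intestinal epithelium p38 is known for roles in the response to injury, in differentiation and in inflammation. The activity of these kinases is set largely by phosphorylation, which RNA-seq does not measure. The study's methods also list SB203580, an inhibitor of p38 alpha and p38 beta, in the medium of wt organoids. The levels below are those of cells grown with this inhibitor in both groups. No library without it was used here, so what it did to these levels was not tested.

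Between 11539 and 11607 genes reached 1 TPM in each DSS library, against 11328 to 11470 in each control library, and the depth of all 6 is unknown because TPM keeps none. Pearson correlations of log2(TPM + 1) across the tested genes lay between 0.941 and 0.981 among DSS libraries and between 0.979 and 0.99 among control libraries. DSS replicate 1 stood apart, with correlations of 0.941 and 0.966 to the other DSS libraries, so values without it are given for Map2k3, Dusp1 and Dusp10, where it lay farthest from the other DSS libraries. Summed over 12 epithelial markers the DSS libraries held 14463, 25949 and 24264 TPM, lowest in DSS replicate 1, against 25354, 24271 and 22460 TPM in control libraries. The single markers went both ways in DSS replicate 1. Epcam, Cdx1, Cdx2, Lgals4 and Muc2 were higher in it than in every control library. Cdh1, Krt8, Krt18, Krt19, Krt20, Vil1 and Car1 were lower in it than in every control library. Between the groups, 2 of the 12 were higher in DSS (limma), Epcam and Cdx2, and 0 lower, beside 6.45% and 3.89% of all tested genes. Summed over 12 myeloid markers the libraries held 255.8, 351.9 and 208.8 TPM in DSS against 66.5, 58.3 and 78.4 TPM in control libraries. Of the 7 myeloid markers tested, 4 were higher and 0 lower, beside 6.45% and 3.89% of all tested genes. Among the 4, Tyrobp, Fcer1g and Itgam had control means of 0, 0.1 and 0.22 TPM. They passed the filter on low values only through the DSS libraries, so the filter partly set this count. Most of the myeloid sum came from Lyz2 and Cd14. The values of Cd14 overlapped between groups, and Mrc1 went the other way, with 0.16, 1.27 and 1.22 TPM in DSS libraries, against 3.13, 2.62 and 3.45 TPM in control libraries (limma adjusted p = 0.0548). Tyrobp and C1qa were listed at 0 in all 3 control libraries. Sums of fibroblast and muscle, lymphocyte, and endothelial and glial markers were each at most 2.39 TPM in DSS and at most 2.68 TPM in control libraries, with Col1a2, Col3a1, Cd3e, Cd3g, Nkg7, Cdh5, Kdr and Sox10 listed at 0 in all 6. In bulk RNA, more cells of a type and more RNA per cell cannot be told apart.

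Of the 10 genes, 2 were higher in DSS organoids, Mapk11 and Map2k6, and 0 were lower (limma, adjusted p under 0.05 over all tested genes). Over all tested genes 10.3% were called, 6.45% as higher and 3.89% as lower. The 3 DSS values lay above the 3 control values without overlap for Mapk11, Mapk13 and Map2k6, and below them for 0 of the 10. Over all tested genes, 36.4% did not overlap, 21.1% with DSS above and 15.3% with DSS below. The median log2 fold change of the 10 was 0.11, beside 0.050 for all tested genes, and 7 of the 10 values were positive. Scaling the libraries by median ratios or by quantiles left the same count, 2 of 10 called, but the count was 1 with no filter on low values or without DSS replicate 2, and 0 without DSS replicate 3 or any 1 control library. Over all genes, 751 were higher and 453 lower on TPM, 634 and 582 after median-ratio scaling and 564 and 606 after quantile normalization, and the total of 1204 was between 44 and 2515 with 1 library left out.

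**Figure D1:**
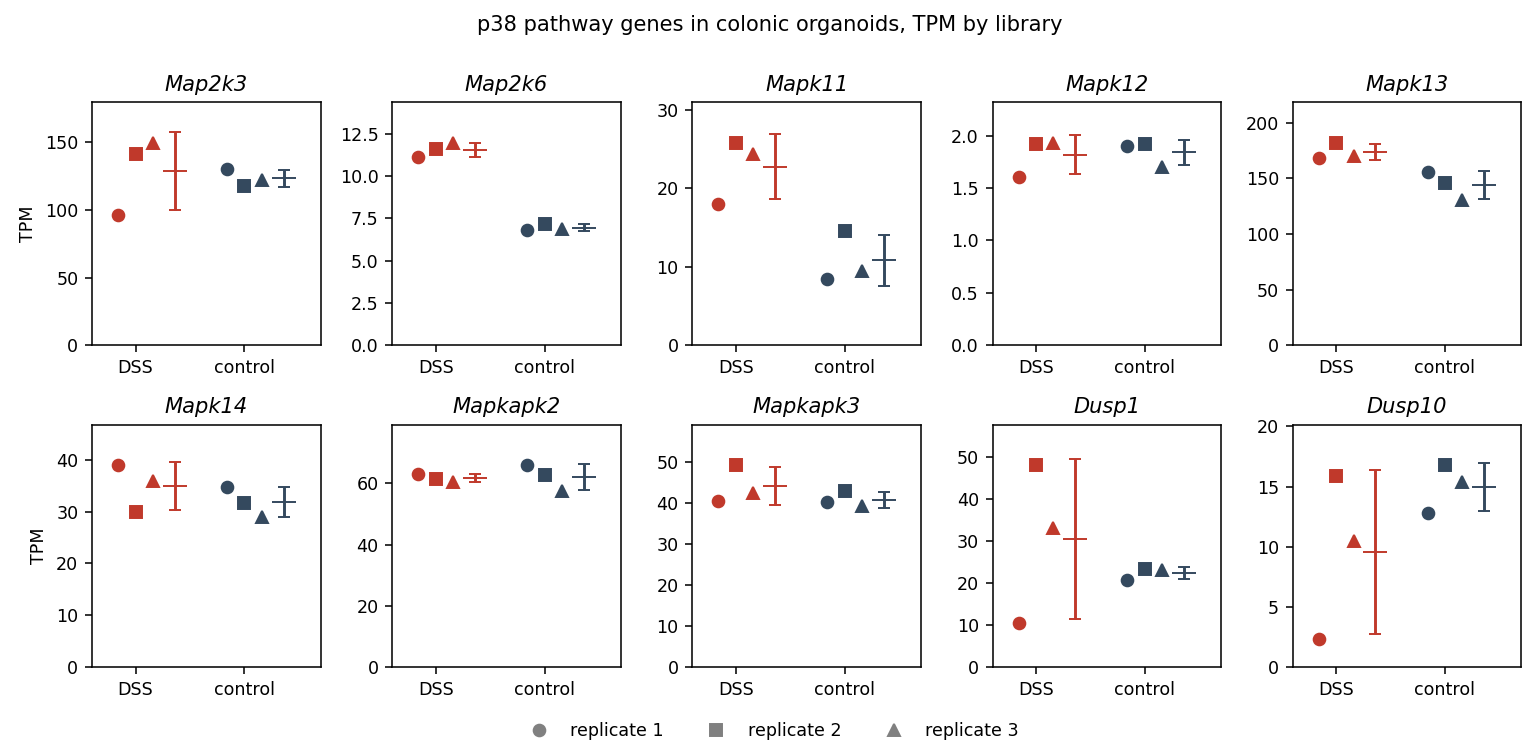
TPM of each of the 10 genes, each panel on its own linear axis that starts at 0, in the 3 DSS libraries (left) and the 3 control libraries (right), with 1 point per library, a marker shape per replicate number, and the group mean with its SD beside the points. Map2k6 and Mapk11 lie higher in all 3 DSS libraries, while Dusp1 and Dusp10 spread over 10.46 to 48.08 and 2.33 to 15.89 TPM among DSS libraries.

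**Figure D2:**
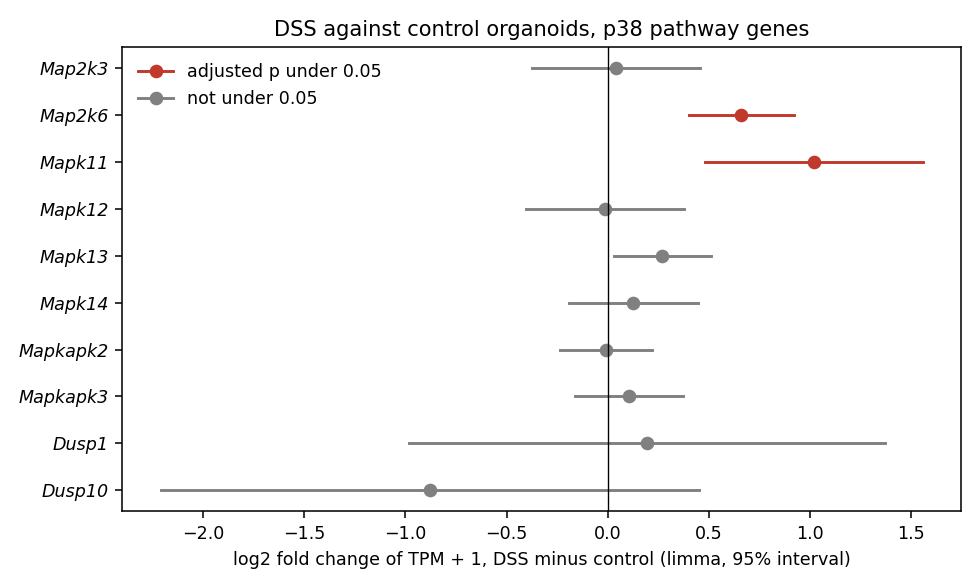
Log2 fold change on the log2(TPM + 1) scale, DSS minus control, as a point with the 95% confidence interval of limma for each of the 10 genes, in red where the adjusted p was under 0.05. The intervals of Mapk11 (0.48 to 1.56), Map2k6 (0.40 to 0.92) and Mapk13 (0.031 to 0.51) lie above 0, and Mapk11 and Map2k6 passed the adjusted threshold.

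The kinases above p38 were Map2k3, which encodes MKK3, and Map2k6, which encodes MKK6. Both activate p38 kinases with little activity on other MAPKs. Map2k6 had the smallest p-value of the 10 genes. Its TPM was 11.14, 11.60 and 11.97 in DSS libraries, against 6.79, 7.17 and 6.90 in control libraries. The values within each group were close together and the groups did not overlap. The group means were 11.6 ± 0.4 TPM in DSS and 6.95 ± 0.20 TPM in control organoids (SD, n = 3 each), a 1.66-fold ratio. On the log2 scale the change was 0.66 with an SE of 0.11 (limma adjusted p = 0.0201). By exact two-sided permutation of the group means p was 0.1, which is as low as 3 libraries against 3 can reach. The size hardly moved when any 1 library was left out, 0.64 to 0.68. The call ended without DSS replicate 3 (limma adjusted p = 0.0866) and without control replicate 1, 2 or 3 (adjusted p = 0.0819, 0.108 and 0.0821).

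Map2k3 was the far more abundant of these kinases. Its TPM was 96.3, 141.2 and 149.6 in DSS libraries, against 130, 118.0 and 122.3 in control libraries. DSS replicate 1 was the lowest of all 6 libraries and the other DSS libraries were the highest, so the groups overlapped. The means were 129.0 ± 28.7 TPM in DSS and 123.4 ± 6.1 TPM in control organoids (SD, n = 3 each), and the 95% confidence interval of the log2 fold change was −0.38 to 0.45 (limma adjusted p = 0.905). Without DSS replicate 1 the log2 fold change was 0.24 and still did not pass (limma adjusted p = 0.0861). Map2k3 held 91.5% ± 1.7 of the summed TPM of this pair in DSS and 94.7% ± 0.4 in control organoids. The summed level was 140.6 ± 29.1 TPM in DSS and 130.4 ± 5.9 TPM in control organoids, so the sum followed Map2k3 and not the gene that was called.

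Map2k6 and Map2k3 lie on chromosome 11, apart from each other. The promoter window of Map2k6 is shown because this gene was called. The window runs from 250 bases before to 50 bases after the annotated start in RefSeq (GRCm38.p6, chr11:110398852-110399151, plus strand). RefSeq gives 3 windows for this gene, and the outermost is printed. Capitals mark TGATTCA, a match to the loose AP-1 pattern TGANTCA, in which N is any base. Its first base lies at position −232 from the start. The loose pattern was found on either strand in 7.81% of 32851 promoter windows. The window had a GC content of 50%, beside a median of 52.7% over all windows, and it held no GC box (GGGCGG, in 35.7% of windows). A match of letters is a description and shows no binding.
Map2k6 promoter: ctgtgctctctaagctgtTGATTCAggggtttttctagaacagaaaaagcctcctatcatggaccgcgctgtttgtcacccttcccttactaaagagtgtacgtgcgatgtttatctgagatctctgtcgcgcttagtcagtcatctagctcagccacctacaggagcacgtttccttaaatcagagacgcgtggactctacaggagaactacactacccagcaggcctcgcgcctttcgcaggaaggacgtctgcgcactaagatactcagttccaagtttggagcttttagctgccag

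For Map2k6, the 5 tested genes with the most similar profile over the 6 libraries were Hoxb9, a homeobox factor of body axis position, Pfkl, the liver form of the glycolytic enzyme phosphofructokinase, Atp10b, a lipid-transporting ATPase, Abl1, a tyrosine kinase, and Wnk4, a kinase that regulates ion transport. Likeness was the root mean square difference of log2(TPM + 1) centred on each gene's own mean, and lay between 0.049 for Hoxb9 and 0.062 for Wnk4. Atp10b, for example, had 34.7, 35.5 and 37.6 TPM in DSS libraries, against 20.5, 21.0 and 20.7 TPM in control libraries. These genes were picked for their likeness, so their profiles are given without a test.

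The 4 p38 kinases were all listed in every library but at very different levels. Mapk13, which encodes p38 delta and is known from epithelia, was the most abundant of the 10 genes. Mapk14, which encodes p38 alpha, the isoform on which most knowledge of the pathway rests, came next among the isoforms, before Mapk11 (p38 beta). Mapk12, which encodes p38 gamma and is best known from skeletal muscle, was at the edge of the filter. TPM is scaled by transcript length, so that levels of different genes may be set side by side within a library.

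Mapk11 had the largest fold change of the 10 with all libraries on TPM. Dusp10 was larger in size after quantile normalization (−0.98 against 0.93) and without DSS replicate 2 (−1.36 against 0.92), DSS replicate 3 (−1.09 against 0.96) or control replicate 1 (−0.98 against 0.88). The Mapk11 TPM was 18.0, 25.8 and 24.4 in DSS libraries, against 8.5, 14.6 and 9.54 in control libraries. The lowest DSS library lay above the highest control library, with DSS replicate 1 and control replicate 2 closest to each other. The ratio of means was 2.09, and the log2 fold change was 1.02 (SE 0.23, 95% confidence interval 0.48 to 1.56, limma adjusted p = 0.0395). In absolute size this change stood at the 92.6 percentile of tested genes. By exact two-sided permutation p was again 0.1. The call ended without DSS replicate 2 or 3 (limma adjusted p = 0.0596 and 0.141) and without control replicate 1, 2 or 3 (adjusted p = 0.124, 0.0711 and 0.130), while the value stayed between 0.88 and 1.23. It also ended with no filter on low values (adjusted p = 0.0730). Among DSS libraries the summed myeloid markers were highest in replicate 2 and lowest in replicate 3, but the single markers did not share this order. Tyrobp, Cd68, Csf1r, Adgre1, Ptprc, Itgam and Mrc1 were highest in replicate 2 and lowest in replicate 1. Lyz2, Fcer1g and C1qb were highest in replicate 2 and lowest in replicate 3, and Cd14 and C1qa were highest in replicate 1 and lowest in replicate 3. Mapk11 was highest in replicate 2 and lowest in replicate 1, and Map2k6 was highest in replicate 3 and lowest in replicate 1. The part of myeloid RNA in these differences was not tested.

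Mapk12 is the direct neighbour of Mapk11 on chromosome 15, on the same strand, and did not share its difference. Its TPM was 1.6, 1.92 and 1.93 in DSS libraries, against 1.9, 1.92 and 1.7 in control libraries. The groups overlapped, with DSS replicate 1 the lowest of the 6. The 95% confidence interval of the log2 fold change, −0.40 to 0.38, takes in falls and rises of a size that these libraries could not tell from 0 (limma adjusted p = 0.966), and on this scale a change of so low a gene is understated. Within each library Mapk11 exceeded Mapk12 by 3.06 ± 0.17 on the log2(TPM + 1) scale in DSS, between 2.87 and 3.20, and by 2.03 ± 0.36 in control organoids, between 1.71 and 2.41 (SD, n = 3 each). The difference of 1.03 between groups was without overlap, with an exact two-sided permutation p of 0.1 and an adjusted p of 0.167 over the 5 pairs compared. This test cannot give a p under 0.1 with 3 libraries against 3, so no pair could pass 0.05 by it.

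The promoter windows of these neighbours are shown because 1 of the genes was called and the other was not. Both are on the minus strand (RefSeq, GRCm38.p6), at chr15:89149557-89149856 for Mapk11 and chr15:89140654-89140953 for Mapk12, and both are printed in the direction of transcription. Capitals mark a match to TGACG, the core of the cAMP response element, which lies on the opposite strand in the Mapk11 window, at position −210, and so reads as the reverse complement. TGACG occurs in 20.8% of all windows. The Mapk12 window held none of the motifs marked in capitals. GC content was 69.7% for Mapk11 and 65.3% for Mapk12, with 4 GC boxes in the Mapk11 window and 1 in that of Mapk12. Neither window held the TATA motif TATAAA, which 13.6% of windows have.
Mapk11 promoter: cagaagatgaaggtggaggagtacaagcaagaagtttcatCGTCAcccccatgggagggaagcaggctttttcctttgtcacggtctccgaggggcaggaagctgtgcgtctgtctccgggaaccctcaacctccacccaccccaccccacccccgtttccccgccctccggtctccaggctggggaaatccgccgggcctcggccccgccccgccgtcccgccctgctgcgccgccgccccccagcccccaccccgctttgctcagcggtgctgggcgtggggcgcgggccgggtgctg
Mapk12 promoter: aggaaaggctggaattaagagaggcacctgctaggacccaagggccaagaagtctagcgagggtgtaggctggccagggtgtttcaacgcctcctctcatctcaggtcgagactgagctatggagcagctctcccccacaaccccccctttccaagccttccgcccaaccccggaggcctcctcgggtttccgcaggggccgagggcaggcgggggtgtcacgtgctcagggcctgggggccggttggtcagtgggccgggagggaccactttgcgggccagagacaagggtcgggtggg

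Mapk13 was separate between the groups but did not pass the adjusted threshold. Its TPM was 168.4, 182.0 and 170.2 in DSS libraries, against 155.8, 145.6 and 130.6 in control libraries. All 3 DSS values exceeded all 3 control values by a small margin. The means were 173.5 ± 7.4 TPM in DSS and 144.0 ± 12.7 TPM in control organoids (SD, n = 3 each), a 1.2-fold ratio, or 0.27 on the log2 scale (SE 0.10, limma adjusted p = 0.132). Mapk14 on the same chromosome, 17, was 38.9, 29.9 and 35.9 TPM in DSS libraries, against 34.7, 31.7 and 29.0 TPM in control libraries. These values overlapped, with a log2 fold change of 0.13 and an interval of −0.19 to 0.45 (limma adjusted p = 0.576). The difference between Mapk13 and Mapk14 within a library was 2.29 ± 0.25 in DSS and 2.14 ± 0.02 in control organoids on the log2(TPM + 1) scale (SD, n = 3 each, exact two-sided permutation p = 0.4, adjusted p = 0.4 over 5 pairs).

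**Figure D3:**
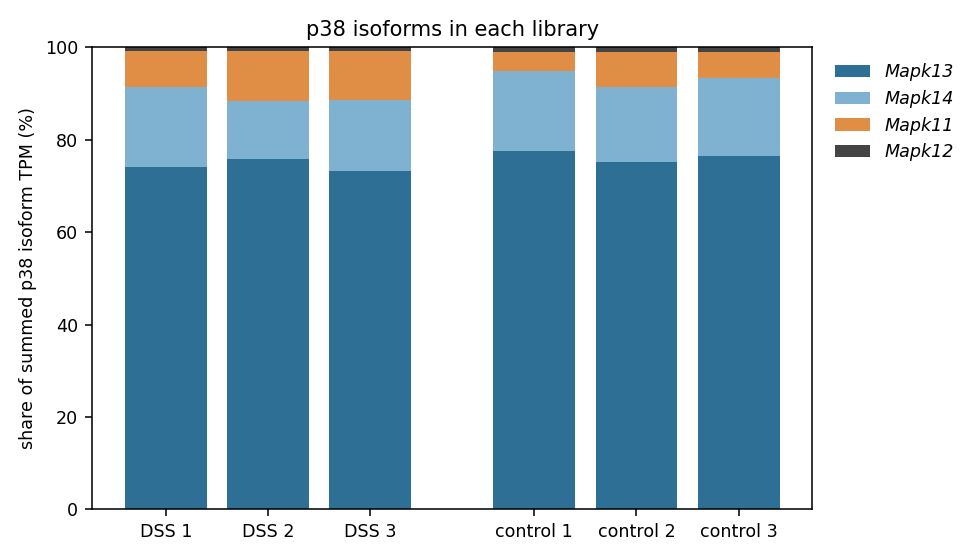
Share of each p38 isoform in the summed TPM of the 4 isoforms, in percent, as a stacked bar for each of the 3 DSS libraries (left) and the 3 control libraries (right). Mapk13 makes up between 73.2% and 75.9% in DSS and between 75.2% and 77.5% in control libraries, and Mapk11 between 7.94% and 10.8% in DSS and between 4.23% and 7.51% in control libraries.

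The summed level of the 4 isoforms was 226.9, 239.6 and 232.5 TPM in DSS libraries, against 200.9, 193.8 and 170.9 TPM in control libraries, again without overlap. Most of this sum was Mapk13, 74.5% ± 1.4 in DSS and 76.4% ± 1.2 in control organoids (SD, n = 3 each). Mapk11 made up 9.74% ± 1.56 in DSS and 5.78% ± 1.65 in control organoids, and its lowest DSS share, 7.94%, was above its highest control share, 7.51%. The share of Mapk14 was 15.0% ± 2.4 in DSS and 16.9% ± 0.5 in control organoids, with overlap, and that of Mapk12 was 0.779% ± 0.066 in DSS and 0.977% ± 0.027 in control organoids, without overlap. Shares must add up to the whole, so they do not move independently, and no test was made of them. Mapk11 and Mapk14, whose products SB203580 inhibits, together made up 24.8% ± 1.4 in DSS and 22.6% ± 1.2 in control organoids.

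Below p38, Mapkapk2 and Mapkapk3 encode MK2 and MK3, related kinases that p38 alpha and beta activate and that phosphorylate RNA-binding proteins and heat shock protein 27. Mapkapk2 was among the steadiest of the 10 genes, with 62.9, 61.4 and 60.3 TPM in DSS libraries, against 65.9, 62.7 and 57.6 TPM in control libraries. The DSS values lay inside the control range, and the log2 fold change of −0.010 had an interval of −0.24 to 0.22 (limma adjusted p = 0.954). Mapkapk3 had 40.4, 49.3 and 42.5 TPM in DSS libraries, against 40.3, 42.9 and 39.2 TPM in control libraries. DSS replicate 2 was the highest of the 6 and the groups overlapped, with an interval of −0.16 to 0.37 (limma adjusted p = 0.581). Mapkapk2 made up 58.3% ± 2.7 of the summed level of this pair in DSS and 60.3% ± 1.5 in control organoids (SD, n = 3 each). The difference between these genes within a library was 0.48 ± 0.16 in DSS and 0.59 ± 0.09 in control organoids on the log2(TPM + 1) scale (exact two-sided permutation p = 0.4, adjusted p = 0.4 over 5 pairs).

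The phosphatase genes were the most variable of the 10 among the DSS libraries. Dusp1 encodes MKP-1, a nuclear phosphatase of p38 and JNK that is induced within minutes of a stimulus, and Dusp10 encodes MKP-5, which acts on p38 and JNK. Dusp1 had 10.5, 48.1 and 33.2 TPM in DSS libraries, against 20.8, 23.4 and 23.1 TPM in control libraries. DSS replicate 1 lay below all controls and the other DSS libraries above them. The log2 fold change of Dusp1 was 0.19 (SE 0.49, interval −0.98 to 1.37, limma adjusted p = 0.831). It was 0.81 without DSS replicate 1, a value that passed (limma adjusted p = 0.0231), and −0.24 without DSS replicate 2, so that single libraries decided both the call and the direction.

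Dusp10 had 2.33, 15.9 and 10.5 TPM in DSS libraries, against 12.9, 16.8 and 15.4 TPM in control libraries. DSS replicate 1 was far below every other library, while DSS replicate 2 lay inside the control range. The log2 fold change was −0.88 (SE 0.56, interval −2.21 to 0.45, limma adjusted p = 0.340), and it was −0.19 without DSS replicate 1. In both genes DSS replicate 2 was the highest of the DSS libraries and DSS replicate 1 the lowest, an order found in 28.1% of tested genes and in 5 of the 10 genes described here, Mapk11, Mapk13 and Mapkapk3 among them. The range of log2(TPM + 1) over the DSS libraries was 2.10 for Dusp1 and 2.34 for Dusp10, and 0.16 and 0.36 over the control libraries. A range above 2 among the DSS libraries was found in 2.39% of tested genes, and 130 tested genes had both that range and that order.

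The distance between the phosphatase genes varied less over the DSS libraries than either gene. Dusp1 exceeded Dusp10 by 1.63 ± 0.13 on the log2(TPM + 1) scale in DSS, between 1.54 and 1.78, and by 0.56 ± 0.10 in control organoids, between 0.46 and 0.66 (SD, n = 3 each). With a pseudocount of 0.1, which weighs the low Dusp10 value of DSS replicate 1 more, the distance lay between 1.59 and 2.12 in DSS and between 0.48 and 0.69 in control organoids. With a pseudocount of 1 the groups were separate by 1.07, with an exact two-sided permutation p of 0.1 and an adjusted p of 0.167 over 5 pairs. Of the 5 pairs compared, 3 did not overlap between groups: this pair, Mapk11 with Mapk12, and Map2k3 with Map2k6, where the difference was 3.35 ± 0.30 in DSS and 3.97 ± 0.10 in control organoids. Single genes did not overlap in 36.4% of those tested, the share for other pairs was not computed, and the pairs with Mapk11 and with Map2k6 each hold a gene already called.

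**Figure D4:**
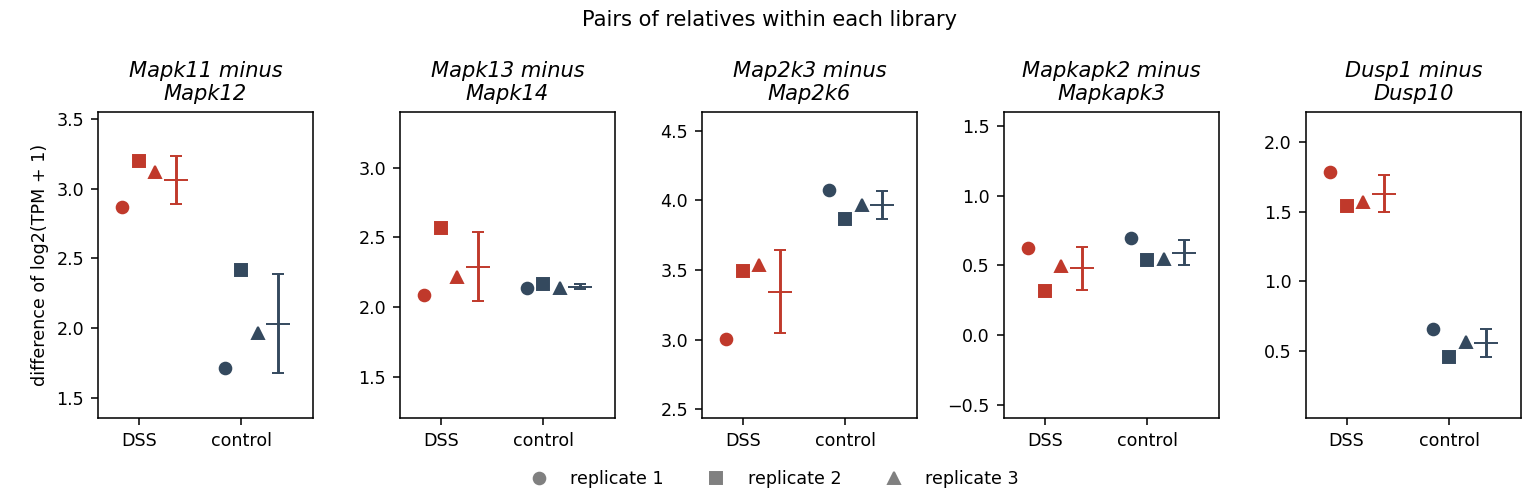
Difference of log2(TPM + 1) between the members of each of 5 pairs of related genes, with 1 point per library and the group mean with its SD, DSS libraries left of control libraries, each panel on its own axis. Dusp1 minus Dusp10 lies between 1.54 and 1.78 in DSS libraries and between 0.46 and 0.66 in control libraries, and Mapk11 minus Mapk12 between 2.87 and 3.20 in DSS and between 1.71 and 2.41 in control libraries.

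The promoter windows of Dusp1 and Dusp10 are shown because these genes had the widest spread over the DSS libraries of the 10. They come from RefSeq (GRCm38.p6), at chr17:26508423-26508722 on the minus strand for Dusp1 and chr1:184034131-184034430 on the plus strand for Dusp10, each printed in the direction of transcription. Capitals mark the cAMP response element and its core. The Dusp1 window held the full palindrome TGACGTCA at position −143, found in 1.79% of all windows, and a further TGACG at position −191. Each arm of the palindrome is itself a TGACG match, on opposite strands. The Dusp10 window held neither of them. Neither window held an AP-1 motif or TATAAA. Each held 3 GC boxes, with a GC content of 67.0% for Dusp1 and 61.0% for Dusp10.
Dusp1 promoter: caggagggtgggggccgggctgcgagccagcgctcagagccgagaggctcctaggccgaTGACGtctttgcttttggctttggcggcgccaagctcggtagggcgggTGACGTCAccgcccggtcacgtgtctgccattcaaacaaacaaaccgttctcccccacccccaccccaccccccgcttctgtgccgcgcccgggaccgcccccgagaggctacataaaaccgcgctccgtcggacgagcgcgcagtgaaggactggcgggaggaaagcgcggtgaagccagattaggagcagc
Dusp10 promoter: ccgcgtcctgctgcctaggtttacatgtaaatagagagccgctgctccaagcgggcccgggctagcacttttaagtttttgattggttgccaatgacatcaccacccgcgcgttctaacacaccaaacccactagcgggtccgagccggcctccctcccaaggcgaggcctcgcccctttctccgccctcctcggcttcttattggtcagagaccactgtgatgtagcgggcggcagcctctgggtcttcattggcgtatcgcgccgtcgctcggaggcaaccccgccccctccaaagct

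Other genes with the same order and a range above 2 among the DSS libraries were looked for in the wider lists of pathway genes. Of 82 tested list genes 4 were found, beside 130 of all 11643 tested genes. The 4 were Gadd45a, a stress gene, Dusp5, a nuclear ERK phosphatase, Fos, an AP-1 subunit, and Areg, which encodes the EGF receptor ligand amphiregulin. They are named for this order, after their values were seen. Gadd45a had 30.7, 167.3 and 97.8 TPM in DSS libraries, against 81.4, 102.7 and 125.8 TPM in control libraries. Dusp5 had 4.13, 33.7 and 19.7 TPM in DSS libraries, against 23.2, 29.8 and 50.2 TPM in control libraries. In both genes DSS replicate 1 was the lowest of the 6 libraries. Fos had 18.7, 80.4 and 32.5 TPM in DSS libraries, against 26.2, 49.9 and 61.7 TPM in control libraries. Areg had 61.1, 659.2 and 295.3 TPM in DSS libraries, against 772.8, 941.4 and 1032 TPM in control libraries. Gadd45a, Dusp5 and Fos overlapped between groups, while all 3 DSS values of Areg lay below the controls without passing the threshold (limma adjusted p = 0.148).

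The order of levels placed Mapk13 first, followed by Map2k3, Mapkapk2, Mapkapk3, Mapk14 and Dusp1, in both groups. After these came Mapk11, Map2k6 and Dusp10 in DSS organoids, and Dusp10, Mapk11 and Map2k6 in control organoids, with Mapk12 last in both. Among DSS libraries, the neighbours Mapk14 and Dusp1, Dusp1 and Mapk11, and Map2k6 and Dusp10 overlapped in TPM. Among control libraries, Dusp10 and Mapk11 overlapped and the other neighbours were separate. By mean TPM over the 6 libraries, the genes ran between the 7.06 percentile of tested genes for Mapk12 and the 91.7 percentile for Mapk13.

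Of the enzymes and adaptors above the MAP2K level, 25 of 26 listed were tested. Among these 0 were higher, beside 6.45% of all tested genes, and 1 was lower, beside 3.89%. That gene was Gadd45b, which encodes a binding partner of MAP3K4. Its TPM was 22.9, 28.3 and 16.4 in DSS libraries, against 56.9, 75.0 and 74.6 in control libraries. The groups were far apart, by −1.59 on the log2 scale (SE 0.21, limma adjusted p = 0.0127), and the call ended without control replicate 2 or 3 (adjusted p of at most 0.0756). Map3k21, a mixed-lineage kinase gene, came next by p-value with 19.8, 11.2 and 12.2 TPM in DSS libraries, against 8.39, 8.61 and 8.21 TPM in control libraries, and did not pass (limma adjusted p = 0.0928). The median log2 fold change of this list was 0.059, beside 0.050 for all tested genes.

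Among substrates of p38 and MK2, 2 of 21 tested members were higher, Creb1 and Eef2k, and 1 was lower, Hspb1, beside 6.45% and 3.89% of all tested genes. The median was 0.043. Creb1, a transcription factor of the cAMP response element, had 12.4, 12.7 and 11.4 TPM in DSS libraries, against 7.83, 7.36 and 7.73 TPM in control libraries (log2 fold change 0.61, limma adjusted p = 0.0252). Hspb1, which encodes heat shock protein 27, the known substrate of MK2, had 1.91, 1.37 and 0.37 TPM in DSS libraries, against 8.30, 4.89 and 4.64 TPM in control libraries (log2 fold change −1.68, limma adjusted p = 0.0306). Both genes were separate between groups. Eef2k, the kinase that slows translation elongation, had 16.0, 19.8 and 21.7 TPM in DSS libraries, against 13.9, 10.8 and 10.3 TPM in control libraries (limma adjusted p = 0.0493). The calls of Creb1 and Hspb1 ended without DSS replicate 3 or any 1 control library (limma adjusted p of at most 0.134 and 0.114), and that of Eef2k without any 1 library except DSS replicate 1 (at most 0.193). With no filter on low values all 3 calls ended. That of Eef2k also ended after quantile normalization, without the mean-variance trend and with the replicate number as a block, so that it held in 4 of 13 alternatives.

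Of 12 tested genes of other MAPK phosphatases, 0 were higher and 0 lower, where 10.3% of all tested genes were called, and the median was −0.28. By p-value Dusp3 and Dusp6, an atypical phosphatase and the cytoplasmic ERK phosphatase, came first. Dusp3 had 18.5, 23.2 and 24.8 TPM in DSS libraries, against 32.2, 30.9 and 28.5 TPM in control libraries (limma adjusted p = 0.0822). Dusp6 had 44.7, 69.7 and 59.8 TPM in DSS libraries, against 78.0, 86.8 and 90.0 TPM in control libraries (limma adjusted p = 0.0853). Both were separate between the groups without passing.

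Among kinases of the neighbouring JNK and ERK pathways, 1 of 13 tested members was higher, Mapk3, which encodes ERK1, and 0 were lower, beside 6.45% and 3.89% of all tested genes, with a median of 0.16. Mapk3 had 334.0, 350.3 and 353.7 TPM in DSS libraries, against 231.2, 207.8 and 174.3 TPM in control libraries. The groups were well apart, by 0.77 on the log2 scale (SE 0.12, limma adjusted p = 0.0177), and the call ended without DSS replicate 3 or control replicate 2 or 3 (adjusted p of at most 0.0957). Map2k1, which encodes MEK1 above ERK, had 100.4, 144.4 and 128.6 TPM in DSS libraries, against 83.7, 88.4 and 96.9 TPM in control libraries, and did not pass (limma adjusted p = 0.102).

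Transcripts whose stability is known to be controlled through MK2 and the AU-rich binding protein Zfp36 were called in both directions. Of 11 tested, 3 were higher (Ccl2, Vegfa and Tnf) and 3 were lower (Ptgs2, Plau and Cxcl1), beside 6.45% and 3.89% of all tested genes, and the median was −0.62. Like the others, this list was chosen with earlier results of these data known. Ccl2, a monocyte chemokine, had 6.26, 10.9 and 8.57 TPM in DSS libraries, against 0.65, 0.20 and 0 TPM in control libraries (limma adjusted p = 0.00623). With a control mean of 0.28 TPM, Ccl2 passed the filter on low values only through the DSS libraries. Ptgs2, which encodes cyclooxygenase 2, had 3.74, 3.57 and 5.55 TPM in DSS libraries, against 20.6, 19.9 and 23.4 TPM in control libraries (limma adjusted p = 0.00518). Of the 6 calls, these held with any 1 library left out. Plau, which encodes urokinase, had 1.38, 1.41 and 1.08 TPM in DSS libraries, against 5.87, 9.01 and 4.82 TPM in control libraries (limma adjusted p = 0.0127). Vegfa, the vascular growth factor, had 119.8, 166.1 and 112.9 TPM in DSS libraries, against 74.6, 72.6 and 72.3 TPM in control libraries (limma adjusted p = 0.0259). Tnf, the cytokine, and Cxcl1, a neutrophil chemokine, differed by 0.65 and −1.49 on the log2 scale (limma adjusted p = 0.0265 and 0.0483). The calls of Vegfa, Tnf and Cxcl1 ended without DSS replicate 3 or any 1 control library (adjusted p of at most 0.120, 0.114 and 0.161), and that of Plau without DSS replicate 3 or control replicate 1 or 2 (at most 0.0677). The call of Cxcl1 also ended with a pseudocount of 0.1, with no filter, with a mean of at least 5 TPM and without the mean-variance trend, and held in 5 of 13 alternatives. Ccl2 and Tnf are also expressed by myeloid cells, whose summed markers were higher in DSS than in control libraries. The part of these cells was not tested for any gene of this list.

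**Figure D5:**
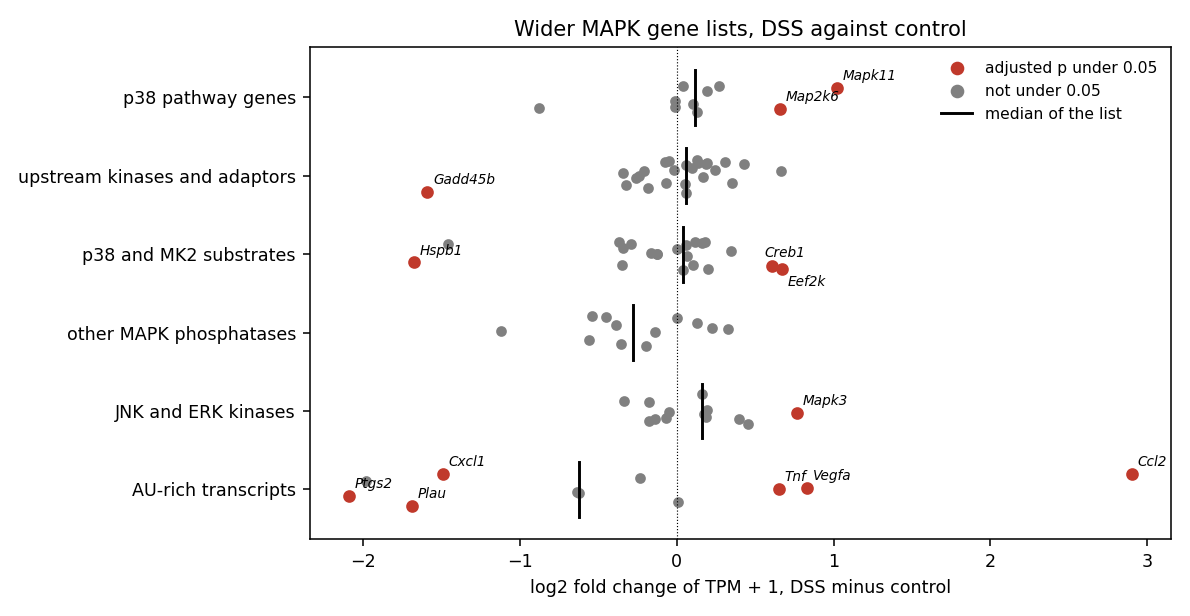
Log2 fold change on the log2(TPM + 1) scale, DSS minus control, of every tested gene in the 10 p38 pathway genes and in 5 wider lists, with 1 point per gene, red where limma called it and grey elsewhere, and a bar at the list median. The medians are 0.11 for the 10 genes and −0.62 for the AU-rich transcripts, where called genes lie on both sides of 0, between −2.09 for Ptgs2 and 2.90 for Ccl2.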

How the data were processed

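The authors trimmed and quantified reads and, per the submitters' processing notes, used RSEM 1.3.1, STAR (2.7.7a, 2.7.10a), cutadapt 3.5 and Trim Galore 0.6.7 on GRCm39. They deposited TPM values per gene, summed over 1 to 10 listed transcripts for the genes described. TPM keeps no depth, so no counting interval is given. The library kit was NEBNext Ultra II RNA. No source used here says that strand was marked, and the long noncoding RNAs Gm46530 and Gm39446 overlap Mapk12 and Map2k6 in RefSeq. Gm39446 was listed at 0 in all libraries.

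The log2(TPM + 1) values of genes averaging at least 1 TPM were tested with limma 3.58.1 in R 4.3.3 (empirical Bayes with a mean-variance trend, two-sided), with Benjamini-Hochberg adjustment over all 11643 genes and a threshold of 0.05. SE is the moderated one of limma. Fold changes on this scale understate those of low genes. Exact permutation tests used all 20 arrangements of 3 against 3 libraries. The fit was tested on simulated data. No pair of libraries matched: at most 75 tested genes had equal TPM. Mice were separate, with 1 library per mouse, so p-values rest on the spread between libraries. That spread holds differences between mice, cultures and library preparations, which cannot be told apart.

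Named were the 10 genes, up to 4 called genes per wider list by smallest p (the 2 smallest where fewer than 2 were called), and the 5 genes most like the member with the smallest p. Cxcl1, Tnf, the genes sharing the order of Dusp1 and those newly called without DSS replicate 1 were added after their values were seen. The 10 genes and the lists were chosen with earlier results of these data known. Alternatives were a pseudocount of 0.1, no filter, a mean of at least 5 TPM, median-ratio scaling, quantile normalization, no trend, a replicate block and leaving out each library. Motifs were searched on both strands of RefSeq promoter windows (GRCm38.p6). All 10 genes matched a window. Of Mapk14, Map2k6 and Mapkapk3, which have several, the outermost was read.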

Additional observations from a re-analysis of the deposited data

How the results depend on the processing

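Over the 10 genes and 13 alternatives, 108 of 129 log2 fold changes kept their direction and their side of the threshold. Another 11 stayed positive but no longer passed, all of Mapk11 or Map2k6, 1 newly passed (Dusp1 without DSS replicate 1), and 9 changed sign, of Map2k3, Mapk12, Mapkapk2 and Dusp1, none of which was called with all libraries. With no filter, 759 of all genes, 1 of the 10 (Mapk11 adjusted p = 0.0730) and 7 genes of the wider lists passed, against 1204, 2 and 11. With a mean of at least 5 TPM, 7 list genes passed, and Mapk12 was not tested. Leaving out 1 library gave 44 to 2515 genes, 0 to 3 of the 10 and 2 to 19 list genes. The count of the 10 was 0 without DSS replicate 3 or any 1 control library.

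Map2k3 was −0.016 after median-ratio scaling. With 1 library left out, log2 fold changes ran between −0.080 and 0.24 for Map2k3, −0.049 and 0.043 for Mapk12, −0.062 and 0.033 for Mapkapk2, −0.24 and 0.81 for Dusp1 and −1.36 and −0.19 for Dusp10. The difference in the Mapk13 share ran between −2.67 and −1.32 percentage points. Leaving out a library also leaves fewer degrees of freedom, and the cause of these changes was not tested.

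With the replicate number as a block, 531 genes, 1 of the 10 and 8 list genes passed (Map2k6 adjusted p = 0.0615, Mapk11 0.0356). The list calls that ended with the block were those of Creb1, Eef2k and Tnf. The labels do not say that numbers pair mice. Deviations of libraries with the same number correlated at 0.200, 0.031 and 0.035, and DSS replicate 2 correlated best with control replicate 3 (0.152), so the numbers were not taken as pairs. Depth is unknown, so it could not be set against any of these values.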

Other observations

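Without DSS replicate 1, which stands apart from the other libraries, 19 of the 82 tested genes of the wider lists were called, beside 21.7% of all 11587 genes tested in that comparison. They held all 11 called with every library in place and 8 more. Of the 8, Map2k1 (MEK1, log2 fold change 0.60, limma adjusted p = 0.0140), Rps6ka4 (the p38-activated kinase MSK2, 0.54, adjusted p = 0.0146), Mef2a (a transcription factor that p38 phosphorylates, 0.38, adjusted p = 0.0416), Map3k4 (0.42, adjusted p = 0.0468) and Map3k21 (0.43, adjusted p = 0.0349) were higher. The phosphatase genes Dusp6 (−0.39, adjusted p = 0.0495) and Dusp7 (−0.61, adjusted p = 0.0386) and the early response gene Ier3 (−0.85, adjusted p = 0.0427) were lower. This comparison set 2 DSS against 3 control libraries, and leaving out this library gave the most called genes over all, 2515. With all libraries the limma adjusted p of the 8 lay between 0.0853 for Dusp6 and 0.679 for Rps6ka4. The value of DSS replicate 1 went the other way for Rps6ka4 and Mef2a, below every control library, and for Dusp7, above every control library.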
